A study of Homo sapiens with 12 samples.

Results

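The RNA crosslinked to eIF3b in 293T cells is described here as the 298 clusters that the authors' table lists under subunit b, out of 1477 clusters for 4 subunits of the initiation factor eIF3. A cluster is a short stretch of RNA where sequenced fragments pile up, given with its gene, strand, annotation, reads and T-to-C conversions. The members were chosen by the subunit column alone, and no measured value entered the choice. The 298 clusters lie in 264 of the 479 genes of the table.

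The study used PAR-CLIP, in which cells take up 4-thiouridine, ultraviolet light crosslinks that base to a bound protein, and a crosslinked base is read as C in place of T. The cells were 293T, a transformed human embryonic kidney line, and every group received 100 µM 4-thiouridine. The 12 libraries form 4 groups of 3 replicates, named for eIF3a, eIF3b, eIF3d and eIF3g. All 4 groups went through the same antibody, which is directed against eIF3b, and RNA was recovered from gel-separated complexes after RNase T1 digestion. There is no library without crosslinking and none from another antibody. Each cluster carries a single value for its subunit, with replicates joined, so nothing here has a spread between libraries and no test between groups was made. Differences are given as descriptions of the 4 lists.

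The factor eIF3 is a large complex that binds the small ribosomal subunit and helps it load onto mRNA. Its subunit eIF3b is part of the conserved core. It carries an RNA recognition motif and a propeller-shaped domain, and it holds the smaller subunits eIF3g and eIF3i to the complex. In the textbook pathway eIF3 meets an mRNA at its 5′ end together with the cap-binding factors, before the ribosome reaches the start codon.

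The lists differ in size and in how reads are spread. The eIF3b list was the shortest, with 298 clusters, against 375 in eIF3a, 403 in eIF3d and 401 in eIF3g. Reads inside clusters came to 19187 in eIF3b, 15132 in eIF3a, 24150 in eIF3d and 62405 in eIF3g, and the depth of the libraries themselves is unknown. Reads are therefore compared below mostly by their place in each list. No cluster had fewer than 8 reads, which is the floor of every list.

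The strongest eIF3b clusters were in the mRNA of another subunit of the same complex. EIF3A encodes the largest eIF3 subunit, the scaffold to which eIF3b binds, and 5 of its coding stretches were listed for eIF3b with 1963, 1875, 1411, 194 and 21 reads. Together they held 5464 reads, or 28.5% of all reads in eIF3b clusters. The cluster with 1963 reads (chromosome 10, 120833313 to 120833368, minus strand, hg19, as are all positions below) overlapped an eIF3d cluster of 3315 reads. The cluster with 1411 reads overlapped clusters of 224 reads in eIF3a and 2599 in eIF3d. The 2 weaker ones had 194 reads beside 97 in eIF3a and 142 in eIF3d, and 21 reads beside 61, 76 and 48 in eIF3a, eIF3d and eIF3g. Only the last of these 5 places was listed for eIF3g. EIF3A also led the eIF3d list, where its clusters of 3315 and 2599 reads ranked 1 and 2.

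**Figure D1:**
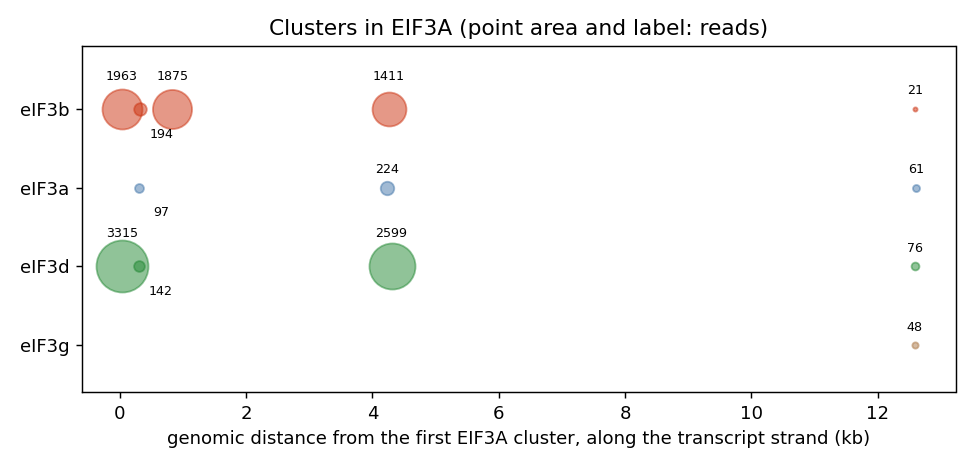
Clusters in EIF3A for each subunit, placed by genomic distance in kb from the first cluster along the transcript strand, with point area proportional to reads and the reads printed beside each point. The eIF3b row has 5 clusters, and the one with 1875 reads has no counterpart in the eIF3a, eIF3d or eIF3g rows.

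The cluster with 1875 reads (chromosome 10, 120832520 to 120832557) was the second strongest of the eIF3b list and was listed for no other subunit. The nearest cluster of another subunit lay 479 nt away, in eIF3a, with 97 reads. Every EIF3A cluster of eIF3b had few conversions, between 0.0476 and 0.147 per read.

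After EIF3A the leading eIF3b clusters were spread over mRNA 5′ ends, introns and a ribosomal RNA copy. DDX39B, an RNA helicase of splicing and mRNA export, had 665 reads in its 5′ UTR and ranked 4 in eIF3b, 5 in eIF3a, 5 in eIF3d and 22 in eIF3g. BTG1, an anti-proliferative gene, had 372 reads and ranked 9 in eIF3b, against 1, 3 and 5 in eIF3a, eIF3d and eIF3g. MLF2 had 345 reads in its 5′ UTR, with 220, 74 and 101 in eIF3a, eIF3d and eIF3g, and ranked 10 in eIF3b. These 3 genes were therefore near the top of the eIF3b list and of at least 1 other.

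Several strong intronic clusters stood at different places in the other lists. IWS1, a transcription elongation factor, had 600 reads in an intron in eIF3b, 12 in eIF3d and 10 in eIF3g, and no cluster in eIF3a. FGFR2, a growth factor receptor, had 525 reads in eIF3b, against 24 in eIF3a, 63 in eIF3d and 26 in eIF3g. LIMCH1, an actin-associated protein, had an intronic cluster of 587 reads in eIF3b, one of 677 in eIF3a and none in eIF3d or eIF3g. RNA5-8SP2, a copy of a ribosomal RNA gene, had 395 and 317 reads in 2 clusters. At the first of them eIF3a, eIF3d and eIF3g had 132, 23 and 26 reads.

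Most eIF3b clusters were weak. The middle of the list was at 19 reads, with quartiles of 12 and 38, and 36 clusters had 100 reads or more. A single cluster was listed for 241 of the 264 genes, 2 for 17 genes and 3 or more for 6. Those 6 were EIF3A, ZNF503 and AMOT, the mitochondrial ribosomal RNA MT-RNR2, C7orf55-LUC7L2 and SCD. AMOT, a regulator of cell junctions and Hippo signalling, had 4 clusters of 8 to 109 reads, all in its 5′ UTR. ZNF503, a zinc finger repressor, had 4 of 14 to 131 reads, which ran from the 5′ UTR over the start codon into the coding sequence. SCD, the desaturase that makes monounsaturated fatty acids, had 3 of 11 to 59 reads in the 5′ UTR and coding sequence. The 3 clusters of C7orf55-LUC7L2, a readthrough gene whose second part is a splicing factor, had 290, 33 and 17 reads in the 5′ UTR.

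By annotation, 65.8% of the eIF3b list lay in 5′ UTRs (95% Wilson interval 60.2 to 70.9, 196 of 298), 11.1% in coding exons (7.99 to 15.1, 33 clusters), 8.72% in introns (6.02 to 12.5, 26) and 9.06% in noncoding RNA (6.30 to 12.9, 27). Intervals cover counting error only. The reads were divided otherwise: 5′ UTRs held 43.8% of them and coding exons 31.6%. Without EIF3A these shares of reads were 61.2% and 4.30%. The eIF3a, eIF3d and eIF3g lists had 67.7%, 68.7% and 68.3% of their clusters in 5′ UTRs. By reads, 5′ UTRs held 65.0% in eIF3a, 49.8% in eIF3d and 20.4% in eIF3g, and coding exons 8.35%, 29.1% and 1.51%. The 27 noncoding eIF3b clusters were 14 in lincRNAs, 6 in mitochondrial RNA, 3 of the piwi class, 2 in miscellaneous RNA and 2 in ribosomal RNA.

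**Figure D2:**
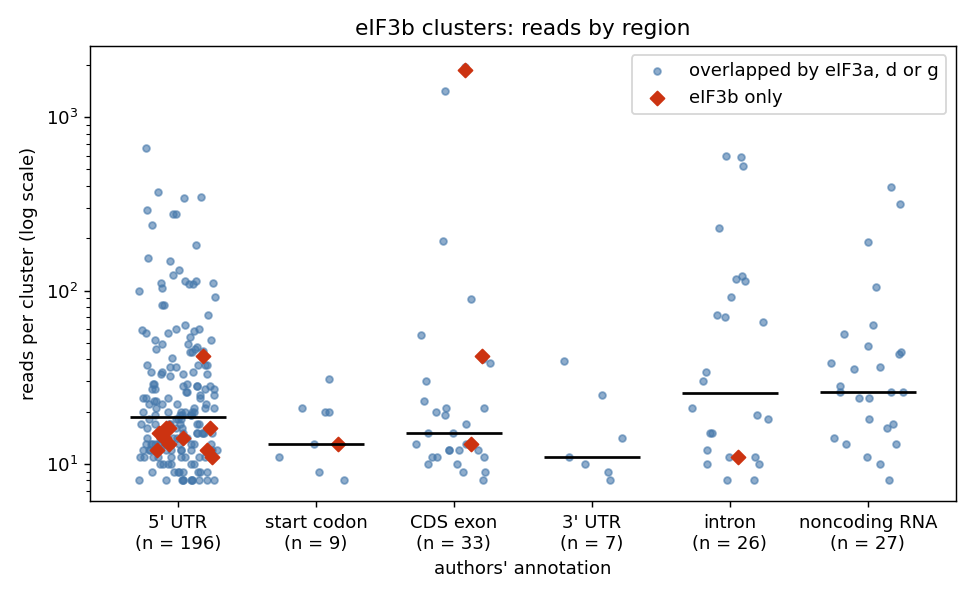
Reads of each of the 298 eIF3b clusters on a log scale, by the authors' annotation, with the median as a bar and clusters of eIF3b alone as red diamonds. EIF3A gives the 1875-read diamond in the coding exons, and the other diamonds lie at or below 42 reads.

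Clusters at the start codon had fewer reads in eIF3b than in the other lists. The 9 eIF3b clusters of this class had a median of 13 reads and at most 31, against medians of 40 in eIF3a, 31 in eIF3d and 25 in eIF3g, where the highest had 141, 171 and 96. SNRPA, a protein of the U1 splicing particle, had 31 reads in eIF3b and 141, 163 and 84 in eIF3a, eIF3d and eIF3g. BIRC5, the apoptosis inhibitor survivin, had 20 reads at its start codon in eIF3b and 88, 171 and 96 in the others. HIST1H2AD, a core histone, had 9 reads in eIF3b and 83, 109 and 93 in the others. HIST1H2BO had 13 beside 60, 63 and 36, and PRKAR2A, a regulatory subunit of protein kinase A, had 11 beside 28, 31 and 33. In each of these 5 mRNAs eIF3b had the fewest reads of the 4 subunits. The start codon class was singled out after its values were seen, and the shared set below gives its place in the lists.

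The eIF3b list also held more long clusters. Counting both ends, 18 of its clusters (6.04%) spanned 50 nt or more, against 9 in eIF3a (2.40%), 9 in eIF3d (2.23%) and 10 in eIF3g (2.49%), while median widths were 26 nt in eIF3b and 25 nt in each of the others. Of the 18, 13 were in 5′ UTRs, among them AMOT with 95 nt, TSC22D3 with 84 and BTG1 with 83. The widest was the 1411-read cluster of EIF3A with 107 nt. Exactly 50 nt were spanned by 6 of the 18, against 3 clusters in eIF3a, 0 in eIF3d and 1 in eIF3g.

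The next comparison asked which places were listed for eIF3b alone. Of the 298 clusters, 16 (5.37%, 95% Wilson interval 3.33 to 8.54) overlapped no cluster of another subunit by even 1 nt on the same strand. The same count was 17 of 375 (4.53%) for eIF3a, 35 of 403 (8.68%) for eIF3d and 51 of 401 (12.7%) for eIF3g. Thus eIF3b had a share of unshared clusters within the range of the other lists. At the other end 169 of its clusters (56.7%) were overlapped by all 3 other subunits. The same count was 169 (45.1%) for eIF3a, 169 (41.9%) for eIF3d and 170 (42.4%) for eIF3g. These counts are nearly equal, so the larger eIF3b share goes with its shorter list.

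Of the 16 clusters, 3 had more than 16 reads. EIF3A had 1875, as above, and EIF3K, a further eIF3 subunit at the edge of the complex, had 42 in its coding sequence (chromosome 19, 39116693 to 39116730, plus strand). RPL10, a protein of the large ribosomal subunit, had 42 in its 5′ UTR (chromosome X, 153626805 to 153626830, plus strand). Neither EIF3K nor RPL10 had any cluster in eIF3a, eIF3d or eIF3g. The 2 eIF3 mRNAs carried 0.121 and 0.0714 conversions per read, and RPL10 carried 1.07. The floor of 8 reads means that a place absent from another list may still have had fewer reads there than that.

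The other 13 had 11 to 16 reads, close to the floor. In the 5′ UTR they included TIMP2, an inhibitor of matrix metalloproteinases, and GCLM, a subunit of the enzyme that starts glutathione synthesis, with 16 reads each. MAGEE1 also had 16 reads, SFT2D1 had 15 and ATXN7L3, a part of a histone deubiquitinating module, had 14. ERO1LB, an oxidase of the endoplasmic reticulum, had 13. HIST1H2AC had 13 reads in its coding sequence, 42 nt from an eIF3a cluster of 20 reads, and TOMM40L had 13 at its start codon. Of the 16 clusters, 12 were in genes with no cluster of another subunit, and 11 (68.8%, Wilson interval 44.4 to 85.8) were in 5′ UTRs, beside 65.6% of the 282 clusters that were shared. Genes listed for eIF3b alone were 12 of 264 (4.55%). For eIF3a they were 11 of 328 (3.35%), for eIF3d 31 of 356 (8.71%) and for eIF3g 40 of 351 (11.4%).

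Where eIF3b shared a place, the outline of the cluster was often the same. Clusters of eIF3a overlapped 229 of the eIF3b clusters (76.8% of eIF3b and 61.1% of eIF3a), clusters of eIF3d 228 (76.5% and 56.6%) and clusters of eIF3g 233 (78.2% and 58.1%). Both ends were identical for 109 clusters with eIF3a, 93 with eIF3d and 112 with eIF3g. The 5′ ends were the same for 144, 138 and 163 and the 3′ ends for 148, 131 and 145. In all, 154 of the 298 eIF3b clusters had the start and end of a cluster of another subunit. JUN, a growth-promoting transcription factor, is an example: its 5′ UTR cluster (chromosome 1, 59249572 to 59249605, minus strand) had the same ends in eIF3a, eIF3b and eIF3g, with 100 reads in eIF3b.

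The order of the clusters by reads was then compared at the 173 places, of 558 in all, that were listed for every subunit. For each list the reads of a place were turned into a percentile of that list, and eIF3b was set against the median percentile of the other 3. At 27 places (15.6%) eIF3b stood above all 3 others and at 65 (37.6%) below all 3. The same shares were 30.6% and 17.3% for eIF3a, 26.0% and 14.5% for eIF3d, and 27.7% and 30.6% for eIF3g. The eIF3b list is the shortest of the 4, and the part of list length in these counts was not tested. Ranked among the 173 places alone, eIF3b was above all 3 at 45 (26.0%) and below at 44 (25.4%), and its median difference went from -6.70 to -0.58 percentile points. In that ranking the shares above and below were 26.6% and 22.0% for eIF3a, 17.9% and 19.1% for eIF3d, and 27.2% and 31.2% for eIF3g. The excess of lower places in eIF3b thus depends on what is ranked. Single places spread widely, with differences from -83.6 to 60.7 points. Over the 173 places the reads of eIF3b had a Spearman correlation of 0.57 with eIF3a, 0.49 with eIF3d and 0.38 with eIF3g, as a description over places that share genes and antibody.

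**Figure D3:**
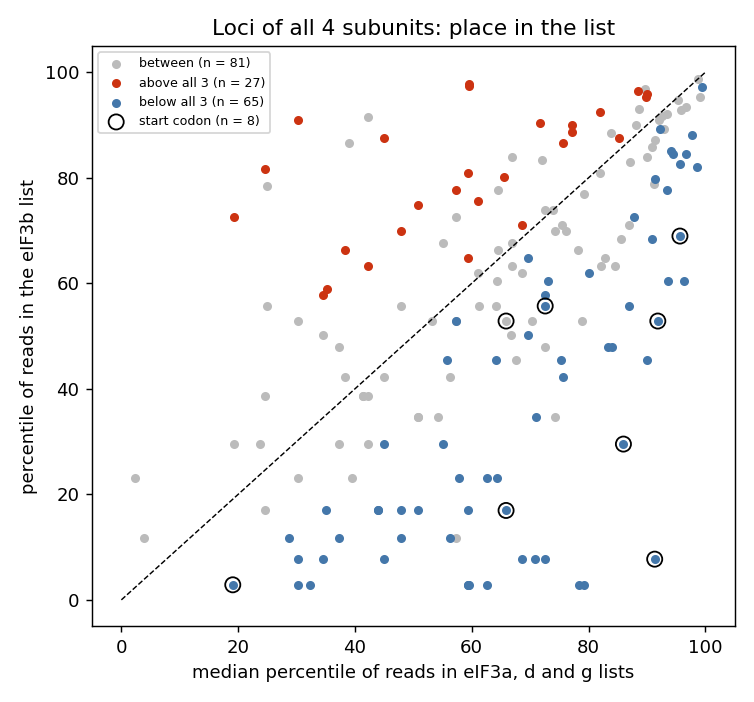
Percentile of reads in the eIF3b list against the median percentile in the lists of eIF3a, eIF3d and eIF3g, for the 173 places of all 4 subunits, with the dashed line marking equal percentiles. Red points (27) are above all 3 others and blue points (65) below all 3, and of the 8 circled start codon places 7 are below all 3.

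The 10 places that stood furthest above all 3 others were chosen by that difference, so their values are a description. PTBP3, a paralog of the splicing repressor PTBP1, led with 114 reads in its 5′ UTR in eIF3b, against 14 in eIF3a, 11 in eIF3d and 15 in eIF3g (chromosome 9, 115095779 to 115095800, minus strand). It ranked 27 in eIF3b and 253, 346 and 267 in the others. Elsewhere in PTBP3 the lists of eIF3a, eIF3d and eIF3g had stronger clusters, of 27, 14 and 29 reads, and eIF3b had none there. SLC7A1, the main transporter of arginine and other cationic amino acids, had 36 reads in its 5′ UTR, against 12, 9 and 13. PRCC, a splicing-associated protein, had 92 against 17, 41 and 19. In each of these 5′ UTRs eIF3b had the most reads of the 4 subunits.

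C12orf65, which takes part in ending mitochondrial translation, had 55 reads in its coding sequence in eIF3b, against 13, 17 and 13. FGFR2 and the RNA5-8SP2 place with 395 reads were also among the 10. The remaining ones were RP11-1E3.1, a noncoding RNA, with 28 reads, the coding cluster of ZNF503 with 38, ZNF302, a zinc finger protein, with 23, and RAB2A, a small GTPase of Golgi transport, with 22. All 10 remained above the 3 others when ranked among the 173 places alone, a ranking of the same reads that is no independent check.

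The 10 places furthest below all 3 others were histone, splicing, transport and noncoding RNA genes among others. HIST1H2AD was the lowest, at percentile 7.72 of the eIF3b list against 91.3, 92.9 and 88.4 in eIF3a, eIF3d and eIF3g. LRRC59, a ribosome-binding protein of the endoplasmic reticulum, had 8 reads in its 5′ UTR in eIF3b, against 51, 44 and 33. SRSF5, a splicing factor of the SR family, had 9 against 36, 33 and 97. LARP1, which binds mRNAs of the translation machinery, had 8 reads in an intron, against 14, 43 and 26. In each of these genes eIF3b was at or next to the floor of 8 reads.

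For 3 of the 10 the low place was a second stretch of a gene with a stronger eIF3b cluster elsewhere. U2AF2, the large subunit of the factor that recognises the 3′ splice site, had 8 reads at the low place (30, 29 and 19 in the others) and 111 at its strong one. MTPN, a regulator of actin capping, had 9 reads (76, 40 and 25 in the others) beside 109. RHOA, a GTPase of the actin cytoskeleton, had 9 (34, 50 and 26 in the others) beside 29. SDC2, a cell-surface proteoglycan, ARF4, a GTPase of Golgi transport, and VTRNA1-2, a vault RNA, had 8 reads each. All 10 also stayed below the 3 others when ranked among the 173 places alone, again by the same reads.

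By region, the lowest places in eIF3b were those at the start codon. Of 8 start codon places of all 4 subunits, eIF3b was below all 3 others at 7, with a median difference of -32.9 percentile points, and ranked among the 173 places it was below at 5, with a median of -30.2. The eighth, in ZNF503, had 20 reads in eIF3b and 49, 31 and 15 in eIF3a, eIF3d and eIF3g. The 120 places in 5′ UTRs had a median difference of -4.02, with 19 above and 37 below all 3. Coding exons had -14.0 over 10 places, with 3 above and 4 below all 3, and introns -4.46 over 14. For 3′ UTRs the value was -18.1 over 4 places, 2 of them below all 3. Noncoding RNA had -16.6 over 17 places, 11 of them below all 3. Only 8 places stand behind the start codon value, and 4 of the 8 are in histone or splicing genes: HIST1H1E, HIST1H2BO, HIST1H2AD and SNRPA.

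Shares of the reads in clusters gave a second view of the same places. Of 229 places shared with eIF3a, eIF3b was over 2-fold higher at 9.61% and over 2-fold lower at 35.8%. Of 230 shared with eIF3d it was higher at 16.5% and lower at 20%, and of 233 shared with eIF3g higher at 64.4% and lower at 7.73%. EIF3A takes 28.5% of the eIF3b reads, and noncoding RNA takes 62.8% of those of eIF3g and 8.57% of those of eIF3b. Without EIF3A and noncoding RNA in the totals, the shares against eIF3a were 19.2% higher and 18.8% lower, and those against eIF3g 42.5% higher and 12.4% lower. The direction against eIF3a therefore rested on the reads of these RNAs in the total.

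The last comparison asked which genes eIF3b lacked. Of 216 genes listed for eIF3a, eIF3d and eIF3g, 55 (25.5%, Wilson interval 20.1 to 31.7) had no eIF3b cluster. The same count was 20 of 181 (11.05%) for genes missing from eIF3a, 22 of 183 (12.02%) for eIF3d and 16 of 177 (9.04%) for eIF3g. The eIF3b list is also the shortest, and the part of its length in this count was not tested. The missing genes were weak in the other lists, with a median of 18 reads against 32 for genes of all 4 subunits. The same held for genes missing from eIF3a (16.5 against 29), eIF3d (17 against 29) and eIF3g (13.5 against 32). Of the 55 missing from eIF3b, 43 had fewer than 20 reads in at least 1 of the other 3. In 54 of the 55 the other 3 subunits were at the same place, and none of the 55 had an eIF3b cluster there under another gene name.

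**Figure D4:**
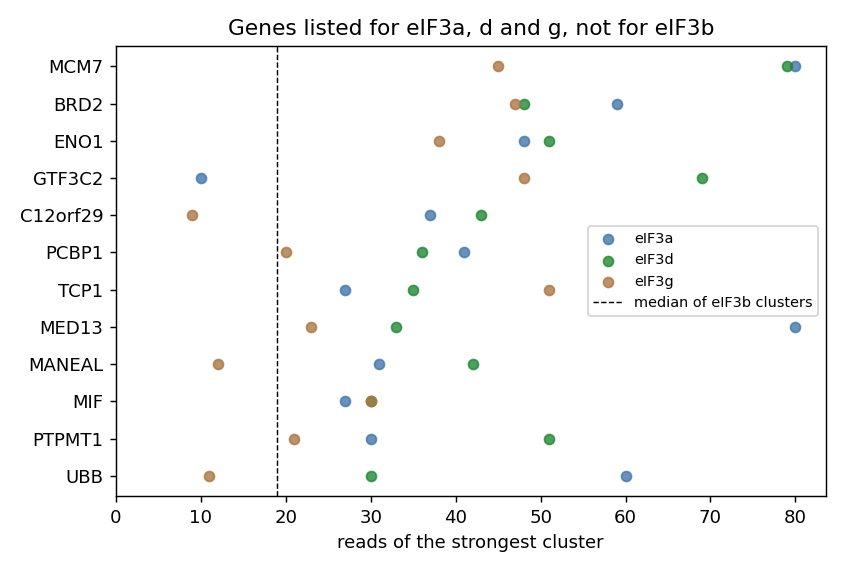
Reads of the strongest cluster in eIF3a, eIF3d and eIF3g for the 12 genes missing from eIF3b with the highest median, with the dashed line at 19 reads, the median of eIF3b clusters. MCM7, BRD2 and ENO1 lie to the right of the line in all 3 lists, while GTF3C2, C12orf29, MANEAL and UBB have 1 list each to its left.

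Among the missing genes, MCM7, a subunit of the replicative helicase, had 80 reads in eIF3a, 79 in eIF3d and 45 in eIF3g, in an intron (chromosome 7, 99691195 to 99691215, minus strand). The RefSeq table places the microRNA genes MIR106B, MIR25 and MIR93 inside MCM7. Whether the cluster lies in one of them was not tested, so its reads may not come from the MCM7 mRNA. BRD2, a reader of acetylated histones, had 59, 48 and 47 reads in its 5′ UTR, and ENO1, a glycolytic enzyme, had 48, 51 and 38. These 3 genes were well above the eIF3b floor of 8 reads in every other list.

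PCBP1, an RNA-binding protein with affinity for C-rich stretches, had 41, 36 and 20 reads in its 5′ UTR, TCP1, a chaperonin subunit, 27, 35 and 51, and MED13, a Mediator subunit, 80, 33 and 23. MIF, a cytokine, had 27, 30 and 30 and PTPMT1, a mitochondrial phosphatase, 30, 51 and 21. At the other end, GTF3C2, a factor of RNA polymerase III, had 10 reads in eIF3a beside 69 and 48, and C12orf29 had 9 in eIF3g beside 37 and 43. UBB, a ubiquitin gene, had 11 reads in eIF3g and MANEAL had 12. In 12 of the 55 genes every other list had 20 reads or more, and the genes missing from eIF3a, eIF3d and eIF3g held 1, 3 and 1 such genes. By region, 40 of the 55 had their strongest cluster in the 5′ UTR, 7 in a coding exon, 6 in an intron and 2 at the start codon.

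Conversions per read in the eIF3b list had a median of 1.05 and quartiles of 0.918 and 1.18, and 211 of the 298 clusters (70.8%) lay between 0.8 and 1.3. In 5′ UTRs the median was 1.06, at start codons 1.05 and in coding exons 1.0. At the places shared with eIF3a the median was 1.08 in eIF3b and 1.03 in eIF3a, and with eIF3g 1.06 and 1.05. With eIF3d it was 1.05 and 0.167, with eIF3b higher for 227 of 231 clusters. The sources used here do not say how conversions were counted for eIF3d.

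**Figure D5:**
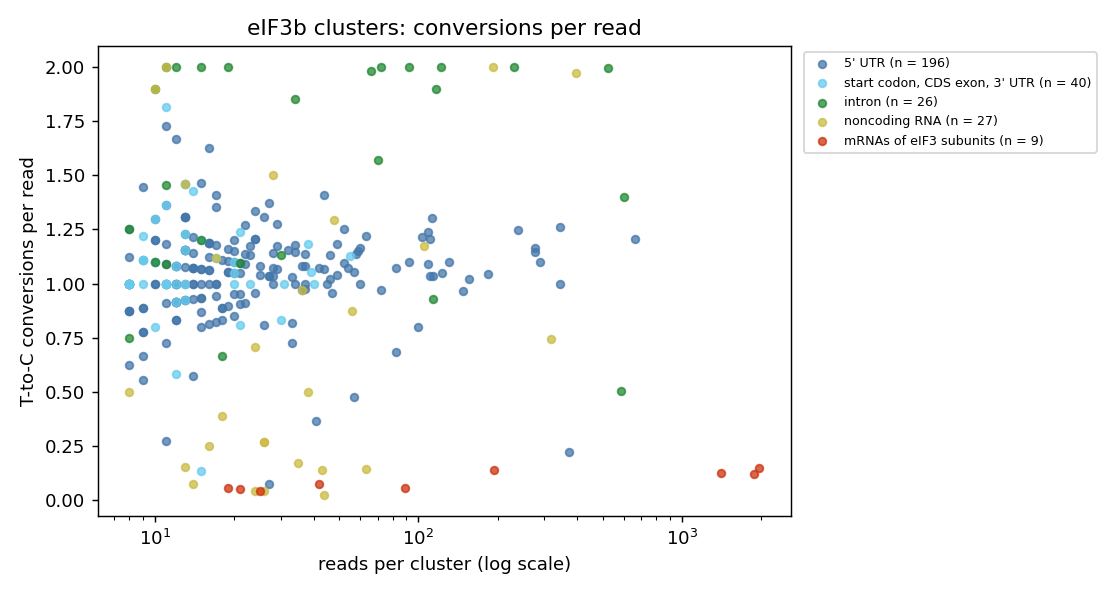
T-to-C conversions per read against reads per cluster on a log scale for the 298 eIF3b clusters, coloured by region, with the mRNAs of eIF3 subunits apart. All 9 clusters of eIF3 subunit mRNAs lie at or below 0.147, and the clusters at or near 2 are intronic or noncoding.

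Clusters at both ends of the range were taken with limits chosen after the values were seen, and the other clusters lay between. Of 24 clusters under 0.3 conversions per read, 9 were in EIF3A, EIF3B, EIF3K and EIF3M, 11 in noncoding RNA and 4 elsewhere. These 9 are all the eIF3b clusters in eIF3 subunit mRNAs, and they ran from 0.04 to 0.147. Clusters in these mRNAs were also low in eIF3a, from 0.0486 to 0.23, and in eIF3g, from 0.0417 to 0.159. In eIF3b, EIF3M had 5 conversions in 89 reads in its coding sequence, the lowest value among clusters of 50 reads or more. The EIF3A clusters of 1875, 1411 and 194 reads had 226, 174 and 27. RPPH1, the RNA of ribonuclease P, had 9 in 63. The other 4 were the 5′ UTRs of BTG1 (82 conversions in 372 reads), LRRC58 and TMEM123 and a coding cluster of DICER1, the nuclease that makes microRNAs, with 2 conversions in 15 reads. These low clusters had a median width of 35.5 nt, against 26 nt for 5′ UTR clusters.

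At 1.9 conversions per read or more there were 15 clusters, of which 11 were intronic, 4 noncoding and 0 in a 5′ UTR. In 10 of the 15 the conversions were exactly 2 for each read, as in ZNF750 with 462 in 231 reads, CEP85 with 244 in 122, PKNOX2 with 184 in 92 and NARS2 with 144 in 72. FGFR2 had 1049 in 525 reads and the stronger RNA5-8SP2 cluster 780 in 395. The lincRNA RP11-93I21.3 had 382 in 191. In eIF3a and eIF3g, CEP85, PKNOX2, NARS2, FGFR2 and RP11-93I21.3 also had 1.98 to 2 conversions per read. ZNF750 had 2 in eIF3g and no cluster in eIF3a. That RNA5-8SP2 place had 1.98 in eIF3a and 1.46 in eIF3g. Lower values occurred too, 0.875 in eIF3g for SNX29 and 1.36 in eIF3a for SH3RF3. Introns as a class had a median of 1.71 in eIF3b, and their clusters were narrow, with a median of 22 nt. Of the 26 genes with an intronic eIF3b cluster, 6 hold a small RNA gene in the RefSeq table, and FGFR2, IWS1, LIMCH1, ZNF750 and CEP85 are not among them.

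Gene lists, chosen with earlier results of these data known, show which kinds of mRNA eIF3b was found on. Among all 479 genes listed, 264 had an eIF3b cluster, the median strongest eIF3b cluster had 19 reads, and 55 genes were missing from eIF3b alone. No list was tested. The counts of the lists are given for eIF3b only, so they do not set it apart from the other subunits. Of the 5 eIF3 subunit genes listed, 4 had an eIF3b cluster: EIF3A, EIF3M with 89 reads, EIF3K with 42 and EIF3B, its own mRNA, with 19. The EIF3B cluster lay in the coding sequence and was shared with eIF3a (35 reads), while the 5′ UTR of EIF3B had clusters of 19, 53 and 82 reads in eIF3a, eIF3d and eIF3g and was not listed for eIF3b. In none of the 4 mRNAs did eIF3b have a cluster in the 5′ UTR.

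Other translation factors had a cluster in 6 of 8 genes. EIF5, which triggers GTP hydrolysis at the start codon, had 82 reads in its 5′ UTR, TPT1, a translationally controlled growth factor, 57, EIF4G3, a scaffold of the cap-binding complex, 54, and EEF2, the translocation factor, 14. Cytosolic ribosomal proteins had 9 of 11: RPS15A with 123 reads, RPL10 with 42, RPS4X with 37 and RPL24 with 30, the last in an intron. RPL17 and RPL23A, with up to 794 and 501 reads in eIF3g, had no eIF3b cluster.

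Of SR proteins and splicing factors 10 of 11 had an eIF3b cluster, led by DDX39B with 665 reads, U2AF2 with 111, RBM39 with 45 and SNRPA with 31. Of hnRNPs and their relatives 6 of 8 had a cluster, each in the 5′ UTR. PTBP3 had 114 reads, HNRNPA0 113, PTBP1 46 and HNRNPAB 27. PTBP1, the general polypyrimidine tract repressor, was not listed for eIF3a and had 10 reads in eIF3d and 15 in eIF3g.

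Of 8 host genes of small nucleolar RNAs, 4 had an eIF3b cluster: SNHG15 with 105 reads, GAS5 with 16, SNHG1 with 13 and DKC1, a pseudouridine synthase, with 11. GAS5 had 324 reads in eIF3d and 6165 in eIF3g, and SNHG1 had 377 and 14879. GNL3, with 209 and 4929, was absent from eIF3b. SNHG15, in contrast, had more reads in eIF3b than the 48, 37 and 41 of the other lists. Mitochondrial and structured noncoding RNAs had 7 of 10, with 395 reads in RNA5-8SP2, 63 in RPPH1, 56 in MT-RNR2 and 48 in MT-TP. RPPH1 had 77, 296 and 619 reads in eIF3a, eIF3d and eIF3g and MT-RNR2 had 85, 397 and 2159, so that both were lowest in eIF3b.

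Histones had 9 of 14 genes with a cluster, led by H1FX with 46 reads, HIST1H1E and HIST1H2BN with 21 each and HIST1H2BJ with 18, and 2 of the 9 in the 5′ UTR. Chromatin regulators had 5 of 11: MORF4L2, a subunit of histone acetyltransferase complexes, with 183, CBX3 with 28, HDAC2 with 26 and SMARCA5 with 24. Cell cycle genes had 6 of 11, all in the 5′ UTR: CCNG1 with 155, CCND2, a G1 cyclin, with 49, CDK12 with 16 and CDC25C with 12. MCM7 and PCNA were among those listed for the other 3 subunits only. Apoptosis and tumour suppressor genes had 3 of 5, with BTG1, BIRC5 and NF2 at 372, 20 and 9 reads.

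Chaperones had 6 of 9, led by PTGES3, a co-chaperone of HSP90, with 239 reads beside 192, 159 and 193 in eIF3a, eIF3d and eIF3g, then BAG3 with 27, CANX with 24 and STIP1 with 18. TCP1, HSPD1 and HSPA14, the other 3, were listed for each of the other subunits. Ubiquitin and proteasome genes had 6 of 8, with 276 reads in UBE2D2, 37 in FBXO7, 20 in PSMD14 and 13 in UBE2V1. Cytoskeleton genes had 8 of 9, with 587 in LIMCH1, 109 in AMOT, 63 in MARCKS and 20 in TUBA1B.

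Metabolic enzymes and carriers had 7 of 15 genes, with a median of 59 reads over those 7. GLO1, which detoxifies methylglyoxal, had 344 reads in its 5′ UTR, against 76, 73 and 61 in eIF3a, eIF3d and eIF3g. COX7C, a subunit of cytochrome oxidase, had 276 against 127, 29 and 103, and SLC1A5, a glutamine transporter, 82 against 35, 42 and 45. SCD followed with 59, against 69, 63 and 35. In GLO1, COX7C and SLC1A5 eIF3b had the most reads of the 4 subunits, with no scaling for the totals of the lists. They were named for their high eIF3b reads, so this is a description. Among the rest, SLC7A1 had 36 reads in eIF3b against 12, 9 and 13, and ATP5B had 30 against 82, 66 and 136. ENO1, with 48, 51 and 38 in the others, had no eIF3b cluster. Signalling genes had 11 of 20: PPP3R1, the regulatory subunit of calcineurin, with 148, JUN with 100, RHOA with 29 and ARF3 with 28. JUN had 138, 286 and 1735 reads in eIF3a, eIF3d and eIF3g, and so was lowest in eIF3b, as was BTG1 with 684, 2256 and 3109. None of the 10 genes associated with 293T cells was in the table, for any subunit, so the label of the cells was not checked here.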

How the data were processed

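PAR-CLIP libraries of 4 subunits were deposited as 1 table. Reads and T-to-C conversions per cluster were deposited as unscaled whole-number counts, with columns named per the file headers. The submitters' processing notes name cutadapt, Bowtie, bedtools and hg19. The cluster caller, its thresholds and the pooling of replicates are unnamed in the sources used here. No column names a replicate, so nothing carries an SD, and the count test and the fits without single libraries were not run. The base of the positions, 0 or 1, is unknown.

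Overlap needed 1 nt on the same strand, and overlapping clusters were joined into 558 places (pandas 2.3.3, Python 3.11.15). The functions were checked on made-up clusters. Percentiles count ties as tied midpoints. Intervals are Wilson intervals at 95% (SciPy 1.17.1). Of 264 eIF3b genes, 246 matched RefSeq names (GRCh38). For 1 name turned into a date the Ensembl ID gave no name, and it was kept as the date.

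Members, lists and rules were chosen with earlier results of these data known. Named genes are the 10 strongest eIF3b genes, genes with 3 or more clusters, the 12 strongest unshared clusters, the 10 furthest places each way, the 12 strongest missing genes, the 5 clusters with most and the 5 with fewest conversions per read among those of 50 reads or more, and JUN and BTG1. From each of 17 lists, up to 4 members with most eIF3b reads are also named. Others were singled out after their values were seen: the start codon genes, long clusters, the remaining clusters with few conversions, and genes named as absent.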

Additional observations from a re-analysis of the deposited data

How the results depend on the processing

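Of 39 alternative settings over 14 results, 23 kept the value within its Wilson interval, its quartiles or 1.5 times its count. By reads, the 5′ UTR share was 43.8% and the coding share 31.6%, and without EIF3A the coding share was 4.30%. With 20 reads or more, 2.07% of eIF3b clusters were unshared and 12 missing genes remained. Places of all 4 subunits with eIF3b above the others were 26.0% when ranked among themselves, 23.7% by share of reads and 30.1% by share without EIF3A and noncoding RNA, and places below were 25.4%, 14.5% and 26.6%. Without those RNAs, eIF3b was over 2-fold higher at 19.2% and lower at 18.8% of places against eIF3a, and 42.5% and 12.4% against eIF3g. Summed conversions over summed reads were 0.847. For most of these the cause was not tested, while the settings of 20 reads leave fewer clusters by construction. Settings added after seeing the data, half-open positions and no EIF3A, left the unshared share at 5.37% and 5.12%. Start codon places with eIF3b below all 3 were 5, 7 and 5 in 3 added settings. No paired analysis was possible because nothing in the deposited table separates replicates, and leaving out a replicate was not run for the same reason. Depth is unknown, so a place absent from a list may lie under its floor of 8 reads.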
